A study of Mus musculus with 12 samples.

Results

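The comparison described here set Pdgfra+ lung mesenchymal cells of mice labelled Pear1-/- against those of *WT* mice after vehicle, the treatment given in place of bleomycin (bleo). It used 6 of the 12 RNA-seq libraries of the study, 3 labelled *WT* vehicle and 3 labelled Pear1-/- vehicle, chosen by those labels alone, and every gene of the count table entered it. The mice were male and, per the methods of the study, on a C57BL/6 background. Cells carrying CD140a, the protein product of Pdgfra, had been sorted from lung by flow cytometry, and low-input full-length cDNA had been made from their RNA. The remaining 6 libraries came from *WT* and Pear1-/- mice given bleo, a drug that brings on lung fibrosis. The Pear1-/- mice carry a knockout-first allele, in which a gene-trap cassette lies in the intron between exons 6 and 7 of Pear1 and is meant to end the transcript there. It acts in every tissue rather than in mesenchymal cells alone. The number of mice behind each library is not given in the sources used here, so each p-value below measures the spread between these libraries, which may be technical.

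PEAR1 (platelet endothelial aggregation receptor) is a transmembrane protein with epidermal growth factor-like repeats that belongs to the same family as MEGF10 and MEGF11. It is known best from platelets and endothelial cells, and it is also made by fibroblasts. Lung fibroblasts that carry PDGFRα, the receptor for PDGF-A and PDGF-C, fall into alveolar fibroblasts, which lie beside the gas-exchange epithelium, and adventitial fibroblasts, which surround vessels and airways. In injury, fibroblasts of this lineage lay down collagen. A comparison of vehicle-treated lungs asks what the genotype does to these cells without injury.

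Pear1 (ENSMUSG00000028073), the targeted gene, did not pass the test for a difference between the labels. Its normalized counts, that is counts divided by a size factor for each library, were 576, 545 and 519 in *WT* replicates 1 to 3 and 511, 501 and 547 in the replicates labelled Pear1-/-. The groups overlapped on this scale. The log2 fold change was −0.08 with an adjusted p of 0.49 (edgeR quasi-likelihood test, Benjamini-Hochberg over all genes tested). An exact two-sided permutation test of the 3 against 3 libraries gave p = 0.3 on the log2 normalized counts, with a difference of −0.07. On log2 CPM (counts scaled to a common library depth) the difference was −0.22 and all 3 libraries labelled Pear1-/- lay below all 3 labelled *WT* (exact p = 0.1, the smallest that 3 against 3 allows). The table gives 1 count per gene, so reads from the exons before the cassette and after it cannot be told apart. Of the bases of its transcript, 781 lie up to the end of exon 6 and 3516 from exon 7 on. A transcript ended at the cassette would thus lack most of its length, while the level here was close between the labels. What the allele or the labels have to do with this was not tested. For that reason the groups below are called by their labels, and every direction is that of the libraries labelled Pear1-/-. Pear1 lies at chr3:87747890-87824306 on the minus strand of GRCm38 and its transcript ENSMUST00000079083 has 23 exons. The junction that the cassette interrupts is shown here because it is where the design expects the transcript to stop, with the last 30 bases of exon 6 in lower case and the first 30 of exon 7 in capitals (5′ to 3′, from the GRCm38 transcripts).
Pear1 exon 6 to 7: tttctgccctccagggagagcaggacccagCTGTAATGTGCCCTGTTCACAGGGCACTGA

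The immunoglobulin variable (V) genes, which encode the antigen-binding part of antibodies and differ from clone to clone of B cells, made up 11 of the 12 largest rises among genes averaging 3 or more in log2 CPM once *WT* replicate 2, which stood apart from its label, was left out. Windows of 60 bases are shown for 8 V genes, with capitals at the bases that differ from the nearest stretch of any other V gene. Each window is the stretch of the coding V exon that was least like any other V gene, so it shows the resemblance at its weakest. Reads of near-identical copies may have been split or swapped by the counting, which makes each V gene value uncertain. The first 4 were higher in the libraries labelled Pear1-/- than in *WT* replicates 1 and 3, and the last 4 were lower.
Ighv5-12: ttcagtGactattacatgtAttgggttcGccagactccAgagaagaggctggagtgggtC
Ighv10-3: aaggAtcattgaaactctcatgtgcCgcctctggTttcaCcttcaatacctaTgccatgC
Igkv12-98: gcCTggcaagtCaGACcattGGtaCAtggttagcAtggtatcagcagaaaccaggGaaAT
Igkv4-58: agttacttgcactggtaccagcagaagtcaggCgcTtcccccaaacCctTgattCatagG
Ighv11-2: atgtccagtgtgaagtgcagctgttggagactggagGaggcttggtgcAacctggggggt
Ighv1-61: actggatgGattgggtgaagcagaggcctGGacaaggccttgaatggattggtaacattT
Igkv16-104: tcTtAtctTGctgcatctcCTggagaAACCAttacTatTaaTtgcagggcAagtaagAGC
Igkv1-110: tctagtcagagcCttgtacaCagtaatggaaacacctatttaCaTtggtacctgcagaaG
The heavy chain windows lie on the minus strand of GRCm38 chromosome 12, that of Ighv5-12 at chr12:113702276-113702335 and that of Ighv11-2 at chr12:114048488-114048547. The kappa windows lie on chromosome 6, that of Igkv12-98 at chr6:68571016-68571075 on the plus strand. Within its window Ighv11-2 differs at 2 bases from Ighv11-1, whereas Igkv16-104 differs at 18 bases from its nearest relative. Of all 31-base words of the transcript, 49.4% were found in no other gene of any kind for Ighv11-2, 49.2% for Ighv5-12, 61.4% for Ighv10-3, 27.4% for Ighv1-61 and 36.4% for Igkv1-110. That share reached 98.4% for Igkv12-98 and 99.7% for Igkv16-104, so reads from these last 2 genes can rarely be taken for another's.

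*WT* replicate 2 stood apart from the other libraries of its label. Whether that label is right cannot be told from the counts, and every value from all 6 libraries takes it as given. Total counts lay between 6702948 and 10018941 in the 6 libraries, and 10443 genes averaged 3 or more in log2 CPM over the 12 libraries. They are called the well-measured genes below. Between *WT* replicates 1 and 3, 3 of the well-measured genes differed more than 2-fold in CPM (with 0.5 added), and between any 2 libraries labelled Pear1-/- at most 7 did. *WT* replicate 2 differed more than 2-fold from *WT* replicates 1 and 3 at 285 and 301 genes, but from the 3 libraries labelled Pear1-/- at 0, 2 and 6. The 139 V genes among them gave the same picture, with 94 and 96 differing from the other *WT* libraries and at most 1 from any library labelled Pear1-/-. Over all 10443 genes, *WT* replicate 2 lay nearer the mean of the libraries labelled Pear1-/- than that of *WT* replicates 1 and 3 at 8254 (79%). No pair was a library deposited again, since even the closest pair had a chi-square per degree of freedom of 1.44.

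**Figure D1:**
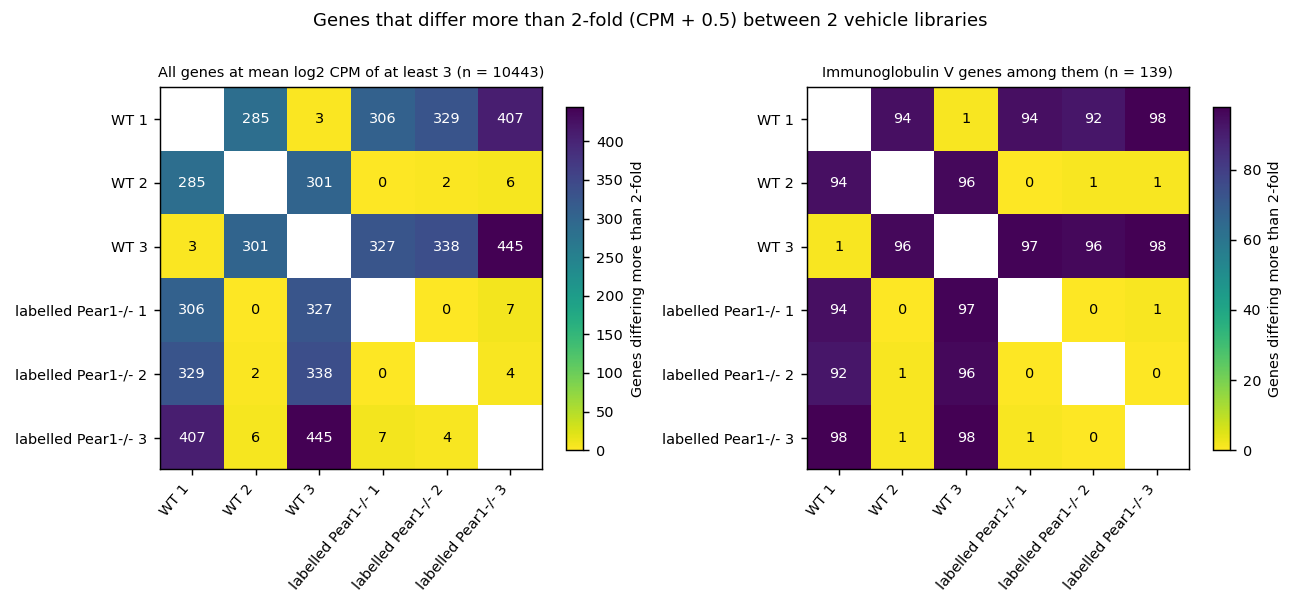
Number of genes that differ more than 2-fold in CPM (0.5 added) for each pair of vehicle libraries, over the 10443 genes that average 3 or more in log2 CPM (left) and the 139 immunoglobulin V genes among them (right). Replicate 2 labelled WT differs at 0 to 6 genes from the libraries labelled Pear1-/- and at 285 and 301 genes from the other libraries labelled WT.

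*WT* replicates 1 and 3 also differed from the other 4 libraries in how their counts were spread. Thinned to the same depth of 6702948 counts, they held a count for 35472 and 35686 genes, against 28414 in *WT* replicate 2 and 26628 to 27770 in the libraries labelled Pear1-/-. The median count over all 40760 genes of the table was 8 in both of them and 3 or 4 in the others. Olfactory receptor genes (1230 genes), best known as the odorant receptors of the nose, summed to 879 and 898 CPM in *WT* replicates 1 and 3, to 280 in *WT* replicate 2, and to 227 to 277 in the libraries labelled Pear1-/-. Predicted genes named Gm and a number summed to 18579 and 19676 CPM in the same pair and to 10007 to 10581 in the other 4. Immunoglobulin genes of any kind took 8.68% and 8.45% of the counts in *WT* replicates 1 and 3, 12.9% in *WT* replicate 2, and 12.8%, 12.9% and 13.9% in the libraries labelled Pear1-/-. The 95% Wilson intervals of these shares reach at most 0.0229 percentage points to each side and cover counting error only. The part that this wider spread of low counts has in the results below was not tested. The counts over genes and lists are therefore given with all 6 libraries and without *WT* replicate 2, while single list members are mostly given without it. Since that replicate was picked out by its counts, the p-values without it describe 5 libraries chosen with their counts known.

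**Figure D2:**
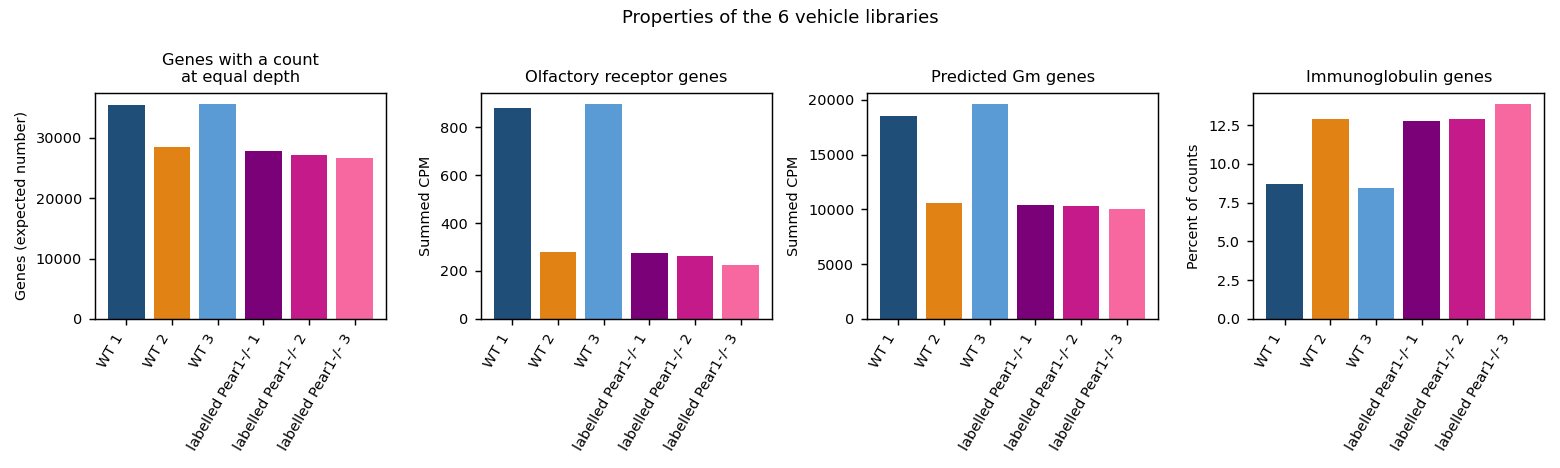
The 4 panels give, for each vehicle library, the expected number of genes with a count at 6702948 counts, the summed CPM of 1230 olfactory receptor genes and of predicted Gm genes, and the percent of counts in immunoglobulin genes. Each bar is 1 library; replicates 1 and 3 labelled WT stand apart from the other 4 in every panel.

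The sorted cells carried the transcripts their label names, with others beside them. Pdgfra, the sorted receptor, had 4802, 4195 and 4698 normalized counts in the *WT* replicates and 4166, 4203 and 4125 in those labelled Pear1-/-. Its log2 fold change was −0.14 (adjusted p = 0.157, edgeR) over 6 libraries and −0.12 (adjusted p = 0.0399, edgeR) without *WT* replicate 2. Ptprc (CD45), which all leukocytes carry and which a mesenchymal sort should leave out, had 3010, 3855 and 3043 normalized counts in the *WT* replicates and 4016, 3918 and 3520 in those labelled Pear1-/-. Igha, the constant chain of IgA antibodies made by plasma cells, had 249206 to 447078 normalized counts in 5 of the libraries and 464983 in replicate 3 labelled Pear1-/-. Pecam1 (CD31), of endothelial cells, had 847 to 1051 normalized counts and Epcam (CD326), of epithelial cells, had 129 to 231. Ddx3y, on the Y chromosome, had 691 to 1221 normalized counts and Xist 9.28 to 35.5, beside the label male. None of the 16 epithelial, 14 endothelial, 12 leukocyte or 12 plasma cell markers was at 0 in all 6 libraries. In bulk RNA, fewer cells of a type and less RNA per cell cannot be told apart, and this holds for each marker list below.

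With all 6 libraries, the difference between the labels rested mostly on genes of low counts and on 1 direction. Of 17418 genes tested, 578 (3.32%) had a fold change above 2 and an adjusted p under 0.05 (edgeR), the rule for a call here. Of these, 12 (0.0689%) were higher and 566 (3.25%) were lower in the libraries labelled Pear1-/-. Only 22 of the called genes, 1 higher and 21 lower, lay among the 10443 well-measured genes. The median log2 fold change of all tested genes was −0.0039 and that of the 10443 genes was 0.07. By adjusted p alone, 340 genes (1.95%) were higher and 921 (5.29%) lower. Fitting the 6 vehicle libraries by themselves, without the bleo libraries to share the estimate of spread, called 0 genes with edgeR, although 3189 had an unadjusted p under 0.05. Leaving out any 1 library other than *WT* replicate 2 also called 0. By adjusted p alone, too, 0 genes passed in these fits, and 5 did when only the well-measured genes were kept. Passing with all 6 libraries refers below to the fit that includes the bleo libraries.

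Pdgfc was the only well-measured gene called higher in the fit of all 6 libraries. It encodes PDGF-C, a growth factor that acts on the receptor by which these cells were sorted. Its normalized counts were 24.2, 79.2 and 36.6 in *WT* replicates 1 to 3 and 114, 100.2 and 99.3 in those labelled Pear1-/-. The groups did not overlap, with *WT* replicate 2 nearer the libraries labelled Pear1-/- than its own. The log2 fold change was 1.12 ± 0.25 (SE) with an adjusted p of 0.0316 (edgeR) and 1.83 ± 0.20 with an adjusted p of 2.44e-11 without *WT* replicate 2. Leaving out 1 library at a time gave 0.82 to 1.83.

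The fallers of that fit included a guidance factor and a muscle protein. Sema3a, a secreted semaphorin that guides axons and vessels, had 124, 51.8 and 123 normalized counts against 39.8, 45.5 and 34.9, a log2 fold change of −1.29 (adjusted p = 0.0307, edgeR). Ttn, the giant spring protein of muscle, had 472, 147 and 507 normalized counts against 134, 114 and 92.8, a log2 fold change of −1.71 (adjusted p = 0.0453, edgeR). Fat3, an atypical cadherin, fell by 1.32 on the log2 scale and the non-coding RNA Cep83os by 1.35. The predicted gene Gm10722 fell by 1.38. In each of these genes *WT* replicate 2 was the lowest of the *WT* libraries, and the values without it ran from −1.54 for Sema3a to −2.03 for Ttn.

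Without *WT* replicate 2, 4931 of 20405 genes (24.2%) were called, 584 (2.86%) higher and 4347 (21.3%) lower in the libraries labelled Pear1-/-. All 578 genes of the first fit were among them in the same direction, which is 100% of that list and 11.7% of the longer one. By adjusted p alone, 5213 genes (25.5%) were higher and 6068 (29.7%) lower. Of the 20405 genes, 2987 were not tested with all 6 libraries. They entered once the filter on low counts asked for fewer libraries, and 2526 of them were called lower and 12 higher. A gene that enters through *WT* replicates 1 and 3 alone had to be lower in the other libraries, so these calls are no support for a direction. Over the 17418 genes tested with all 6 libraries, the fit without *WT* replicate 2 called 484 (2.78%) higher and 1971 (11.3%) lower, and by adjusted p alone 22.8% were higher and 23.5% lower. Among the well-measured genes the split turned, to 239 called higher and 65 called lower. That split moved with the scaling, to 206 and 85 with DESeq2 size factors and to 148 and 149 when TMM factors were taken from genes averaging 5 or more in log2 CPM (the high genes), a step that lowered the median of all genes by 0.21 and called 1.84% of all genes higher and 24.6% lower. *WT* replicate 2, which did not enter the fit, lay nearer the libraries labelled Pear1-/- at 303 of these 304 genes. The median log2 fold change of the 10443 genes was 0.18 under the first scaling, and changes below are to be read against it.

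The direction followed the level of the gene, given here over the 17418 genes tested with all 6 libraries. Of 1482 genes with a mean log2 CPM under 0, 727 were called lower and 51 higher without *WT* replicate 2, with a median log2 fold change of −1.16. The fit of all 6 libraries called 167 of them lower and 5 higher, with a median of −0.86. Genes this low lie near the filter, where being high in *WT* replicates 1 and 3 helps a gene to pass. Their calls are therefore no support for a direction. Between 2 and 3, the median was −0.145 without *WT* replicate 2, with 63 called higher and 168 lower among 1749 genes, and −0.11 with all 6 libraries, with 1 and 76. At 8 or more it was 0.18, with 11 called higher and 3 lower among 461, and 0.12 with all 6 libraries, with 0 and 1 (edgeR; 244 of them at an unadjusted p under 0.05).

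Gene types also differed, though they were not matched for level. Over all 17418 genes, 2.78% were called higher and 11.3% lower without *WT* replicate 2. Of 473 long intergenic non-coding RNAs, 110 were called lower and 12 higher without *WT* replicate 2, with a median log2 fold change of −0.35, and 25 and 0 were with all 6 libraries, with a median of −0.28. Processed pseudogenes had a median of −0.0035 with 34 of 352 called lower and 17 higher, and one of 0.03 with 5 lower and 1 higher with all 6 libraries. Protein-coding genes had a median of 0.02 with 263 of 14735 called higher and 1406 lower, and one of 0.01 with 9 and 440. Of 46 olfactory receptor genes, 21 were called lower and 0 higher without *WT* replicate 2, and of 21 vomeronasal receptor genes, 12 and 0. These are the members that passed the filter on low counts, out of 1230 and 284. Both families were highest in *WT* replicates 1 and 3, which helps a gene to pass, so these calls are no support for a direction. In the fit of all 6 libraries 0 of the same olfactory receptor genes (edgeR; 9 at an unadjusted p under 0.05, and 1 past the adjusted threshold by DESeq2) and 1 of the vomeronasal receptor genes were called, the latter lower. Both receptor families are known best from sensory neurons of the nose, and their summed levels moved with the same libraries as the number of genes detected.

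**Figure D3:**
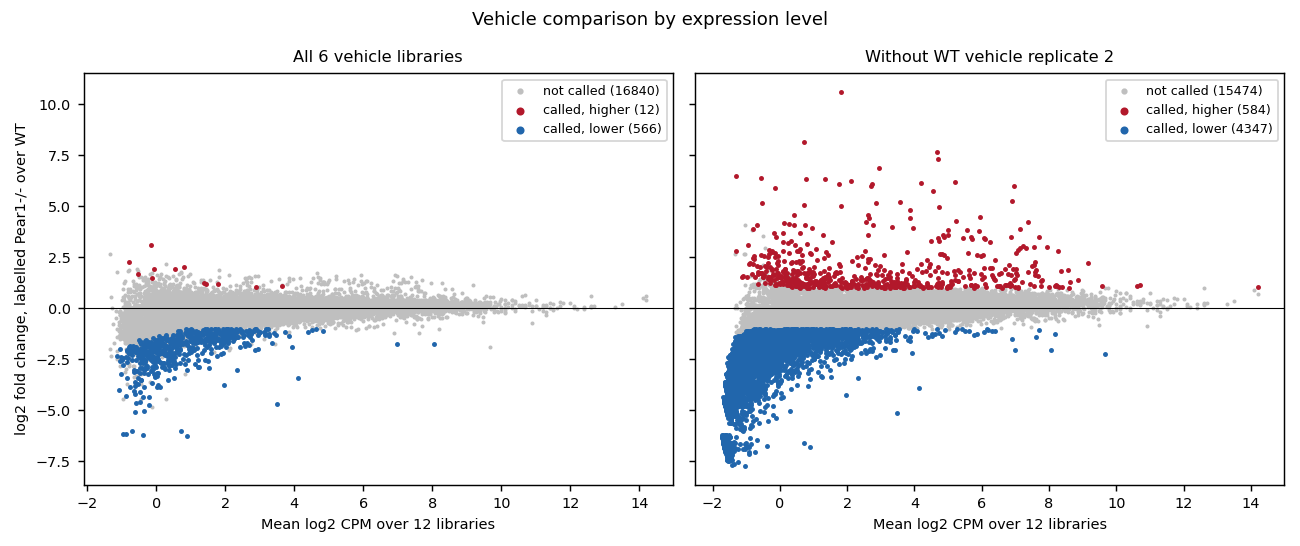
Log2 fold change of the libraries labelled Pear1-/- over those labelled WT against mean log2 CPM over 12 libraries, with all 6 vehicle libraries (left) and without WT replicate 2 (right); each point is 1 gene, and colour marks genes with a fold change above 2 and an adjusted p under 0.05. Called genes are mostly low ones that were lower (566 and 4347, of which 2526 on the right are genes that the filter added), while the 584 called higher on the right are spread over all levels.

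Immunoglobulin genes gave 98 of the 239 well-measured genes called higher and 11 of the 65 called lower. Ighv5-12 had 2.42, 1132 and 10.3 normalized counts in *WT* replicates 1 to 3, from 2, 1116 and 9 counts, and 1220, 1148 and 1519 in those labelled Pear1-/-. Its log2 fold change was 7.68 ± 0.24 without *WT* replicate 2 (adjusted p = 5.5e-17, edgeR) but 1.73 with an adjusted p of 0.323 with it. Ighv10-3 had 7.28, 1016 and 5.72 against 1022, 962 and 1068 normalized counts. *WT* replicate 2 lay just below the libraries labelled Pear1-/- for Ighv5-12 and within their range for Ighv10-3, and the other *WT* libraries held almost no reads. The kappa chain genes behaved in the same manner, Igkv12-98 with 34.0, 1792 and 20.6 against 1786, 1854 and 2040 normalized counts. For Igkv4-58 the values were 9.70, 566 and 6.87 against 515, 563 and 609. Their log2 fold changes without *WT* replicate 2 were 6.19 and 6.14.

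Other V genes went the opposite way. Ighv11-2, a heavy chain gene known for its use by B-1 cells, had 2069, 150.2 and 2055 normalized counts in the *WT* replicates and 84.3, 40.8 and 38.2 in those labelled Pear1-/-. Its log2 fold change of −4.70 ± 0.94 passed the test with all 6 libraries (adjusted p = 0.0354, edgeR) and was −5.16 without *WT* replicate 2. Ighv1-61 fell from 620, 158 and 545 to 118, 107 and 135 normalized counts, and Igkv16-104 from 5090, 1509 and 4870 to 1197, 1120 and 1144. Both passed the test with 6 libraries, at log2 fold changes of −1.88 and −1.74 (adjusted p = 0.044 and 0.0406, edgeR). Igkv1-110, with 41911, 9652 and 36825 against 6824, 7043 and 10218 normalized counts, did not (log2 fold change −1.88, adjusted p = 0.0531, edgeR), and it passed without *WT* replicate 2 (−2.23, adjusted p = 7.78e-05, edgeR).

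Over the families without *WT* replicate 2, 73 of 110 heavy chain V genes were higher and 20 lower by adjusted p alone, with a median log2 fold change of 1.81. Of 98 kappa V genes, 80 were higher and 11 lower, with a median of 1.94, and all 3 lambda V genes were higher. Of these, 3 heavy chain and 3 kappa V genes were added by the looser filter, and the 3 kappa ones were all lower. Over the genes tested with all 6 libraries, 70 of 107 heavy chain V genes were higher and 19 lower, and 79 and 10 of 95 kappa V genes. Against 22.8% and 23.5% of all genes in that fit, the share of V genes that rose was larger and the share that fell smaller. With TMM factors from the high genes the counts were 68 and 20 for heavy chain and 76 and 13 for kappa V genes. With all 6 libraries, 4 heavy chain V genes passed as higher and 9 as lower, and 0 and 5 kappa V genes did (edgeR; 36 and 31 of either family at an unadjusted p under 0.05, and 14 and 8 by DESeq2). The antibody of each B cell clone uses 1 heavy and 1 light chain V gene, so the V genes of a library are not independent measurements.

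Of the constant chain genes, those of IgG1 and IgA rose and that of IgM fell. Ighg1, the constant chain of IgG1, had 6.06, 192 and 4.58 normalized counts in the *WT* replicates and 172, 211 and 197 in those labelled Pear1-/-. Its log2 fold change was 5.22 ± 0.26 without *WT* replicate 2 (adjusted p = 7.32e-25, edgeR) and 1.43 with it (adjusted p = 0.258, edgeR). Igha had 257662, 434029 and 249206 against 447078, 443478 and 464983 normalized counts, a log2 fold change of 0.90 without *WT* replicate 2. Jchain, the joining chain of IgA and IgM, rose by 0.97, Mzb1, a plasma cell chaperone, by 1.14, and Derl3, which helps clear misfolded proteins from the endoplasmic reticulum, by 1.77. Ighm, the constant chain of IgM, was the 1 plasma cell gene of 12 that fell, from 16360, 8798 and 15488 to 8208, 7822 and 8711 normalized counts (log2 fold change −0.88 without *WT* replicate 2). In all, 10 of the 12 plasma cell genes were higher and 1 lower, with a median of 0.86. With 6 libraries 0 of the 12 passed in either direction (edgeR), with 9 at an unadjusted p under 0.05, and DESeq2 passed 2.

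**Figure D4:**
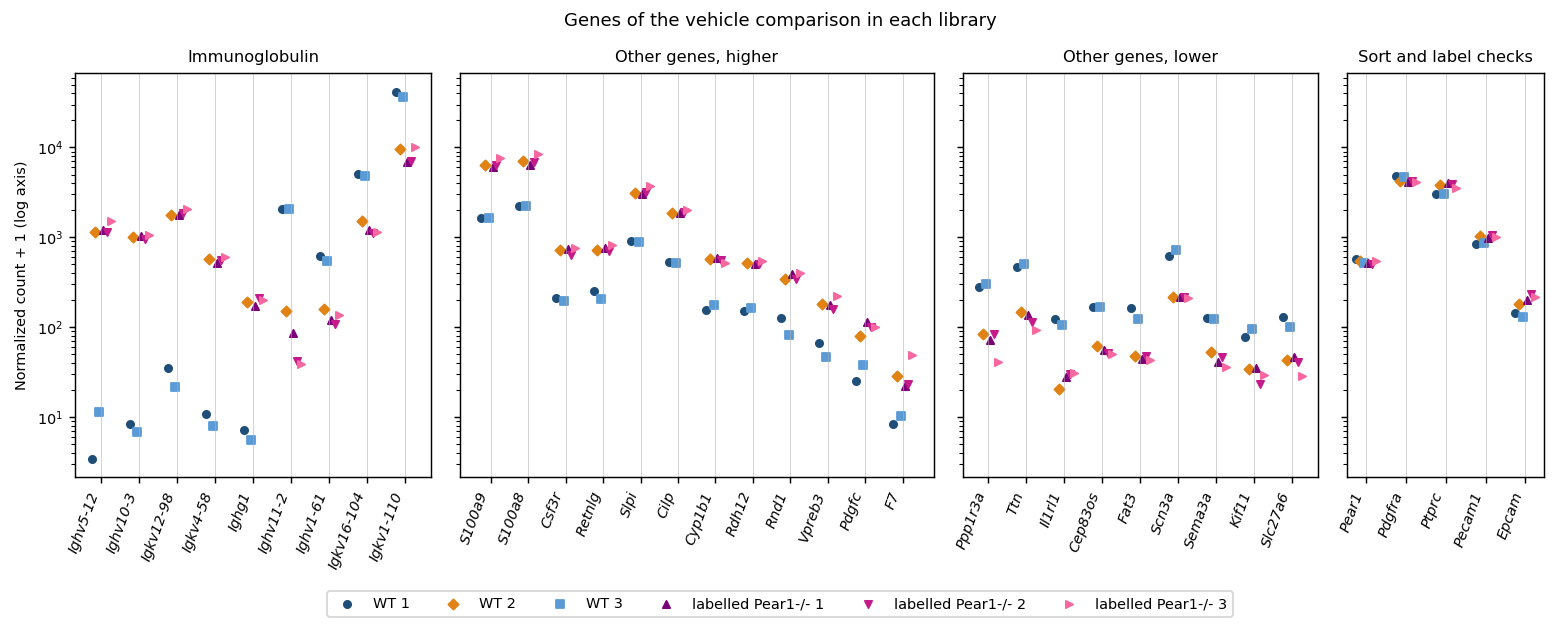
Normalized counts plus 1, on a log axis, of named genes in each vehicle library, grouped as immunoglobulin genes, other genes higher or lower in the libraries labelled Pear1-/- than in WT replicates 1 and 3, and genes that check the sort and the labels; each point is 1 library. Replicate 2 labelled WT (orange) falls with the libraries labelled Pear1-/- in the first 3 panels, and Pear1 does not separate the labels on this scale.

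Neutrophil genes formed the marker list with the largest median outside the immunoglobulins. All 12 were higher without *WT* replicate 2 by adjusted p, beside 25.5% of all genes, with a median log2 fold change of 1.70. Of the 12, 10 were called higher, beside 2.86% of all genes. S100a8 and S100a9, which form calprotectin, the main cytosolic protein of neutrophils, were among them. S100a9 had 1626, 6421 and 1627 normalized counts in the *WT* replicates and 5985, 6388 and 7576 in those labelled Pear1-/-, a log2 fold change of 2.1 ± 0.08 (adjusted p = 2.33e-20, edgeR). S100a8 had 2212, 6985 and 2240 against 6417, 6978 and 8458, a log2 fold change of 1.78. In both genes *WT* replicate 2 lay among the libraries labelled Pear1-/-. Csf3r, the receptor for the neutrophil growth factor G-CSF, rose by 1.86 and Retnlg, a neutrophil resistin-like protein, by 1.81. The summed level of the list was 850 and 876 CPM in *WT* replicates 1 and 3, 2191 in *WT* replicate 2, and 2077 to 2465 in the libraries labelled Pear1-/-. With all 6 libraries the median was 0.84 and 0 of the 12 passed (edgeR and DESeq2), with 6 at an unadjusted p under 0.05.

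Lymphocyte genes rose by smaller amounts. Their counts stand beside 25.5% of all genes higher and 29.7% lower without *WT* replicate 2. Those shares were 11.9% and 41.1% with TMM factors from the high genes, and 1.95% and 5.29% with all 6 libraries. Of 16 T and NK cell genes, 14 were higher and 0 lower without *WT* replicate 2, with a median log2 fold change of 0.78. Lck, the kinase that starts T cell receptor signalling, had 240, 465 and 207 normalized counts in the *WT* replicates and 446, 454 and 502 in those labelled Pear1-/-. It rose by 1.13, and Nkg7, a granule protein of cytotoxic cells, by 1.03. Of 12 B cell genes, 10 were higher, with a median of 0.67, led by Cd79a, a signalling chain of the B cell receptor, at 1.04. Of 12 genes shared by leukocytes, 11 were higher, with a median of 0.54. In that list Rac2, a GTPase of blood cells, rose most, by 1.12. Ptprc itself rose by 0.40 ± 0.05 (adjusted p = 1.76e-08, edgeR). With TMM factors from the high genes the T and NK, B and shared leukocyte lists had 13, 10 and 11 higher genes and 0, 0 and 1 lower. With 6 libraries 0 genes of the B cell and shared leukocyte lists passed (edgeR; 9 and 10 at an unadjusted p under 0.05, and 1 and 0 by DESeq2). Of the T and NK cell genes 4 passed, among them Cd2 (0.63, adjusted p = 0.0386, edgeR).

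The macrophage lists are read against the 25.5% of all genes that were higher and 29.7% that were lower, or 11.9% and 41.1% with TMM factors from the high genes. Those shares take in genes of every level and differ along it. Of 2614 genes from 5 to below 6 in mean log2 CPM, 1228 were higher and 198 lower without *WT* replicate 2. From 2 to below 3, 297 and 435 of 1749 were. Of 16 alveolar macrophage genes, 8 were higher and 1 lower without *WT* replicate 2, with a median log2 fold change of 0.44, and Chil3, a chitinase-like protein of these cells, had 1112, 2264 and 1102 against 2247, 2227 and 2284 normalized counts. Of 16 interstitial macrophage genes, 2 were higher and 5 lower. With TMM factors from the high genes the alveolar list stood at 3 higher and 3 lower and the interstitial list at 1 and 8. With all 6 libraries 0 alveolar macrophage genes passed (edgeR and DESeq2), with 4 at an unadjusted p under 0.05, and 2 interstitial ones did, both lower. Siglec1, the sialic acid receptor of tissue macrophages, had 46.1, 11.2 and 59.5 normalized counts in the *WT* replicates and 6.63, 4.64 and 2.18 in those labelled Pear1-/-. It passed with all 6 libraries (log2 fold change −3.03, adjusted p = 0.0292, edgeR). Of 14 genes of alternative activation, 5 were higher and 5 lower, and 2 and 6 with those factors. With 6 libraries 0 were higher and 2 lower (edgeR; 9 at an unadjusted p under 0.05, and 4 by DESeq2). The fallers were led by Ccl24, a chemokine for eosinophils, with 47, 1 and 41 counts in the *WT* replicates and 1, 0 and 0 in those labelled Pear1-/-. Retnla, a resistin-like protein of these macrophages, fell by 1.03. Siglec1 and Ccl24 were low in *WT* replicate 2 as well.

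**Figure D5:**
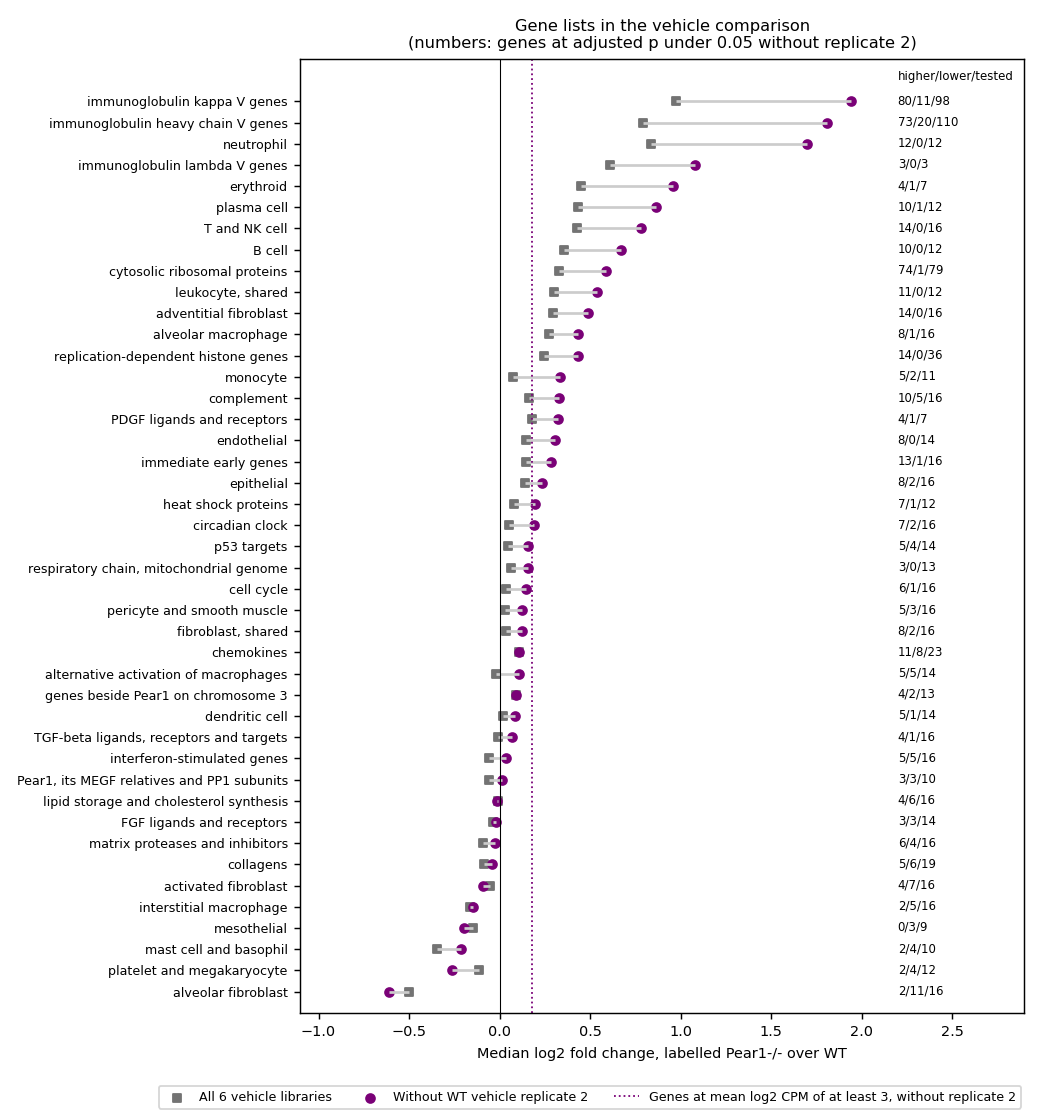
Median log2 fold change of the libraries labelled Pear1-/- over WT for gene lists, with all 6 vehicle libraries (squares) and without WT replicate 2 (circles); the numbers give the genes at an adjusted p under 0.05 without WT replicate 2 as higher/lower/tested, and the dotted line is the median of the 10443 well-measured genes. Of the lists drawn, immunoglobulin V and neutrophil genes lie furthest right and alveolar fibroblast genes furthest left; olfactory and vomeronasal receptor, predicted Gm, ribosomal pseudogene and sex-linked genes are not drawn.

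Among the fibroblast genes, those of alveolar and of adventitial fibroblasts moved apart. Beside them, 25.5% of all genes were higher and 29.7% lower without *WT* replicate 2. The shares were 11.9% and 41.1% with TMM factors from the high genes, and 1.95% and 5.29% with all 6 libraries. Of 16 alveolar fibroblast genes, 11 were lower and 2 higher without *WT* replicate 2, with a median log2 fold change of −0.61. Npnt (nephronectin), a ligand of the integrin whose α8 chain Itga8 encodes, had 6607, 2790 and 6342 normalized counts in the *WT* replicates and 2602, 2520 and 2694 in those labelled Pear1-/-. It fell by 1.25 on the log2 scale (adjusted p = 4.66e-28, edgeR), and Itga8 by 0.79. Wnt2, a ligand that keeps alveolar epithelial stem cells, fell by 1.42, the receptor Fgfr4 by 1.32 and the amino acid transporter Slc7a10 by 1.13. The 2 that were higher, Plin2 of lipid droplets and the BMP-family member Gdf10, had log2 fold changes of 0.25 and 0.27 and did not pass with TMM factors from the high genes, which left 0 higher and 14 lower. The list summed to 7398 and 7707 CPM in *WT* replicates 1 and 3, 4844 in *WT* replicate 2, and 4589 to 4801 in the libraries labelled Pear1-/-. Over all 6 libraries 5 of the 16 passed, all lower. They included Itga8 (−0.65, adjusted p = 0.0438, edgeR), Limch1 (−0.77, adjusted p = 0.0406, edgeR) and Col13a1 (−0.51, adjusted p = 0.0334, edgeR).

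Of 16 adventitial fibroblast genes, 14 were higher and 0 lower, with a median log2 fold change of 0.49, and 11 and 0 with TMM factors from the high genes. The share of all genes higher was 25.5%, and 11.9% with those factors. Ccl11 (eotaxin) had 523, 1182 and 469 normalized counts in the *WT* replicates and 1135, 1176 and 1236 in those labelled Pear1-/-, a log2 fold change of 1.32. The alarmin Il33 rose by 1.08, Ly6a (Sca-1) by 0.93 and Pi16, a peptidase inhibitor that marks adventitial fibroblasts, by 0.71. Of the 16, 3 passed as higher with all 6 libraries, beside 1.95% of all genes, Pi16 among them (0.43, adjusted p = 0.0435, edgeR). Beside these lists, Dcn (decorin), a small matrix proteoglycan, had 19456, 40282 and 19833 against 41643, 42200 and 39777 normalized counts and rose by 1.14, and Lum (lumican), of the same family, by 1.09. Of the 16 genes shared by fibroblasts, 8 were higher and 2 lower, with a median of 0.13 that turned to −0.09, with 5 higher and 8 lower, with TMM factors from the high genes. In the fit of all 6 libraries 0 of them passed (edgeR and DESeq2), with 8 at an unadjusted p under 0.05.

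The counts of collagen genes higher and lower depended on the scaling. Of 19 collagens, 5 were higher and 6 lower without *WT* replicate 2, near the 25.5% and 29.7% of all genes of any level. Their median log2 fold change was −0.04, with 0 genes called. Col1a1, the main fibrillar collagen chain, had 33474, 31492 and 32191 normalized counts in the *WT* replicates and 30988, 29780 and 33804 in those labelled Pear1-/-, with a log2 fold change of 0.0097 ± 0.05 (adjusted p = 0.875, edgeR). Col3a1 stood at a log2 fold change of 0.04 (adjusted p = 0.403, edgeR). Col6a3, of the beaded filament collagen VI, fell by 0.49, also with all 6 libraries (−0.42, adjusted p = 0.0296, edgeR), whereas Col15a1, a basement membrane collagen, rose by 0.49. Of 16 activated fibroblast genes, 4 were higher and 7 lower, with a median of −0.09. Tnc, tenascin C, fell by 1.12, the protease Adam12 by 1.60, Lrrc15, a membrane protein of matrix-producing fibroblasts, by 1.79, and Fn1, fibronectin, by 0.84, while Aspn, asporin, rose by 1.07. Postn, periostin, stood at a log2 fold change of 0.10 (adjusted p = 0.21, edgeR) and Acta2, smooth muscle actin, one of 0.09 (adjusted p = 0.162, edgeR). With TMM factors from the high genes, 1 collagen was higher and 14 were lower, with a median of −0.25, and 4 activated fibroblast genes were higher and 8 lower. The shares of all genes with those factors were 11.9% and 41.1%. Over all 6 libraries 3 collagens passed, all lower, and 1 activated fibroblast gene was higher and 3 lower, beside 1.95% of all genes higher and 5.29% lower. The collagens summed to 15893 and 16358 CPM in *WT* replicates 1 and 3, 13662 in *WT* replicate 2, and 13100 to 13912 in the libraries labelled Pear1-/-.

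The pathways that the study connects with PEAR1 are given beside the 25.5% of all genes that were higher and 29.7% that were lower at this threshold. With TMM factors from the high genes these shares were 11.9% and 41.1%. Among the 7 PDGF ligands and receptors, 4 were higher and 1 lower without *WT* replicate 2, with Pdgfc the 1 called gene. Pdgfb, the ligand of pericyte recruitment, rose by 0.95 and its receptor Pdgfrb by 0.32, whereas Pdgfa stood at a log2 fold change of −0.28 (adjusted p = 0.0775, edgeR). Of 16 TGF-beta ligands, receptors and targets, 4 were higher and 1 lower. Smad2, which carries the signal to the nucleus, stood at a log2 fold change of 0.41, and it passed with all 6 libraries as well (0.34, adjusted p = 0.0449, edgeR). In that fit 1 gene of the list was higher and 1 lower. With TMM factors from the high genes the TGF-beta list stood at 0 higher and 7 lower and the PDGF list at 3 and 3. Of 14 FGF ligands and receptors, 3 were higher and 3 lower, and 0 and 7 with those factors. In the fit of all 6 libraries 0 FGF genes passed (edgeR; 3 at an unadjusted p under 0.05, and 1 by DESeq2), and Pdgfc was the 1 PDGF gene that did. Among Pear1, its MEGF relatives and the subunits of protein phosphatase 1 (10 genes), 3 were higher and 3 lower, and 2 and 4 with those factors. Megf10 fell by 1.03, from 72.8, 37.5 and 52.7 to 36.0, 19.5 and 32.7 normalized counts, and was the 1 gene of that list that passed with all 6 libraries (−0.88, adjusted p = 0.0477, edgeR). The catalytic subunits Ppp1ca and Ppp1cc rose by 0.40 and 0.80, and Ppp1cb stood at a log2 fold change of 0.03 (adjusted p = 0.813, edgeR). Of 13 tested genes beside Pear1 on chromosome 3, which could carry passenger alleles of the targeted locus, 4 were higher and 2 lower, and 2 and 5 with those factors. Bcan, at a log2 fold change of −2.46, was tested only once the filter asked for fewer libraries, so its value is no support for a direction. With all 6 libraries 0 of 12 passed (edgeR and DESeq2), with 3 at an unadjusted p under 0.05.

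Further lists covered signalling, secreted defence and housekeeping genes. Without *WT* replicate 2 they stand beside 25.5% of all genes higher and 29.7% lower. The shares were 11.9% and 41.1% with TMM factors from the high genes, and 1.95% and 5.29% with all 6 libraries. Of 16 immediate early genes, which respond within minutes to stimuli such as tissue dissociation, 13 were higher and 1 lower, with 0 called and a median log2 fold change of 0.29 that fell to 0.07, with 7 higher and 2 lower, with TMM factors from the high genes. Over all 6 libraries 4 were higher and 0 lower (edgeR; 10 at an unadjusted p under 0.05, and 4 by DESeq2). Ier3 rose by 0.72 and Zfp36, which destabilises cytokine transcripts, by 0.44, and both were among these 4 (0.42 and 0.25, adjusted p = 0.0451 and 0.0437, edgeR). Of 23 chemokines, 11 were higher and 8 lower, which turned to 7 and 10 with TMM factors from the high genes, and with all 6 libraries 0 and 3 passed (edgeR; 15 at an unadjusted p under 0.05, and 4 by DESeq2). Cxcl12, which holds leukocytes and progenitors in tissue, rose by 0.91 and the neutrophil chemokine Cxcl2 by 0.98, while Cxcl14 fell by 0.60. Of 16 complement genes, 10 were higher and 5 lower (7 and 5 with those factors), with C3, the central component, at 20012, 38526 and 18982 against 38251, 38211 and 43274 normalized counts. The lowest fitted value of that list belonged to Cfd, complement factor D, which had 1, 0 and 2 counts in the *WT* replicates and 0 in each library labelled Pear1-/-, too few for a fold. The 1 complement gene that passed with all 6 libraries was C1qa, a chain of C1q, and it was lower (−0.29, adjusted p = 0.0493, edgeR). Of 79 cytosolic ribosomal protein genes, 74 were higher and 1 lower, with a median of 0.59, and 72 and 2 with TMM factors from the high genes. The same genes gave 13 higher and 0 lower with all 6 libraries, and a median of 0.33. Of 16 interferon-stimulated genes, 5 were higher and 5 lower, and 3 and 7 with TMM factors from the high genes. Of 16 cell cycle genes, 6 were higher and 1 lower, and 4 and 4 with those factors. Over all 6 libraries 2 interferon-stimulated genes were higher and 2 lower, and 1 and 1 cell cycle genes.

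The lists of surrounding tissue are read against the same 25.5% and 29.7% of all genes. Over the genes tested with all 6 libraries, these shares were 22.8% and 23.5% without *WT* replicate 2, and 1.95% and 5.29% with it. Of 9 tested mesothelial genes, 3 were lower and 0 higher, both without *WT* replicate 2 and with all 6 libraries. They were Msln (mesothelin), with 164, 85.2 and 144 against 71.0, 66.8 and 69.8 normalized counts, the mucin Muc16 and the uroplakin Upk1b, at log2 fold changes of −1.08, −1.23 and −0.79 without *WT* replicate 2. The list summed to 148 and 153 CPM in *WT* replicates 1 and 3, 99.1 in *WT* replicate 2, and 89.8 to 96.2 in the libraries labelled Pear1-/-. Of 14 endothelial genes, 8 were higher and 0 lower, and of 16 epithelial genes, 8 and 2, with medians of 0.31 and 0.24 that dropped to 0.10 and 0.03 with TMM factors from the high genes, which gave 4 and 2 endothelial and 5 and 4 epithelial genes beside 11.9% and 41.1% of all genes. With all 6 libraries 0 endothelial genes passed (edgeR and DESeq2), with 4 at an unadjusted p under 0.05, and 1 epithelial gene did. Epcam rose by 0.74, and it passed with all 6 libraries too (0.51, adjusted p = 0.0296, edgeR). Scgb1a1, the secretoglobin of club cells, rose by 0.77 while Bpifa1, a secreted protein of the upper airway, fell by 2.5. Among mast cell and basophil genes 2 were higher and 4 lower, and 0 and 2 with all 6 libraries, with the mast cell protease Mcpt4 at 34.0, 7.10 and 30.9 against 0, 0.928 and 4.37 normalized counts.

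The genes with the largest rises outside the immunoglobulin families were looked up after their values were seen, since the rule for naming genes returned almost only V genes among the risers. Cilp, a matrix protein of cartilage and fibroblasts, had 531, 1884 and 520 normalized counts in the *WT* replicates and 1866, 1891 and 2034 in those labelled Pear1-/-, a log2 fold change of 1.94 ± 0.07 (adjusted p = 5e-31, edgeR). Slpi, a secreted inhibitor of neutrophil elastase, rose by 1.94, Rnd1, a small GTPase, by 1.95, Cyp1b1, a cytochrome P450, by 1.80 and F7, coagulation factor VII, by 1.89. The log2 fold changes of these 5 genes with all 6 libraries lay between 0.86 for Cyp1b1 and 1.01 for Rnd1, and none passed the test (adjusted p of 0.128 to 0.191, edgeR). Among the fallers Ppp1r3a, a glycogen-targeting subunit of protein phosphatase 1 in muscle, had 277, 83.2 and 300 against 70.1, 83.5 and 40.4 normalized counts and fell by 2.07. Il1rl1 (ST2), the receptor of IL-33, had 122, 19.3 and 104 against 26.5, 28.8 and 29.5 and fell by 1.93. The sodium channel gene Scn3a, also looked up after its values were seen, fell by 1.57. In all of these *WT* replicate 2 lay nearer the libraries labelled Pear1-/- than the other *WT* libraries. It did so at 194 of the 195 well-measured genes outside the immunoglobulins that were called without it.

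The comparison after bleo set other libraries against each other, in the fit of all 12 libraries, so *WT* vehicle replicate 2 entered its filter and its estimate of spread but neither of its groups. After bleo, 3853 of 17418 genes (22.1%) were higher and 4184 (24%) lower in the libraries labelled Pear1-/- by adjusted p alone. The genes called after vehicle are here the well-measured ones of the fit without *WT* vehicle replicate 2. Of the 98 immunoglobulin genes called higher after vehicle, 55 were higher and 1 lower after bleo, with a median log2 fold change of 2.15. The 11 called lower after vehicle had a median of 1.87 after bleo, with 9 higher and 0 lower. Most of these immunoglobulin genes were thus higher after bleo, or did not pass, whichever way they had gone after vehicle. Of the 141 other genes called higher after vehicle, 30 were higher and 20 lower after bleo, with a median of 0.12. Of the 54 other genes called lower, 14 were higher and 8 lower, with a median of 0.05, where the median of all genes was −0.01. Igkv16-104 had log2 fold changes of −1.74 after vehicle and 3.30 after bleo, and Sema3a of −1.29 and 2.85, while Pdgfc had 1.12 and 0.06.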

How the data were processed

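RNA-seq had been made from sorted CD140a+ mouse lung cells with the SMART-Seq v4 kit. Per the methods of the study, reads were aligned with HISAT2 to GRCm38 (mm10), and the submitters' processing notes also name FastQC. The counter and its use of strand are not given in the sources used here, so reads from overlapping and antisense genes cannot be told apart. The authors deposited raw counts per gene (40760 genes, 12 libraries). They also deposited normalized counts, in which each count is divided by a size factor (unit: signal), and these give the values shown per library. Members and gene lists were chosen with earlier results of these data known.

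Counts were filtered with filterByExpr, scaled by TMM and fitted over the 4 groups with glmQLFit and glmQLFTest of edgeR 4.0.16 (R 4.3.3), with Benjamini-Hochberg adjustment over all genes kept. The fit was made with all 12 libraries and again without *WT* vehicle replicate 2. A gene was called at a fold change above 2 and an adjusted p under 0.05, the thresholds the study used. Alternatives were DESeq2 1.42.0, limma 3.58.1 on log2 normalized values plus 1, other scalings and filters, a replicate block and leaving out each library. The scripts were tested on simulated data. The named genes were the 10 largest rises and 10 largest falls among called genes averaging 3 or more in log2 CPM with all libraries, and the 12 and 12 without *WT* vehicle replicate 2 whose groups did not overlap. At most 2 V genes of a family were named, with members of 39 gene lists and 5 check genes. Total counts of 6702948 to 10018941 put a floor of 3 counts at 0.299 to 0.448 CPM in the vehicle libraries. Sequences came from the GRCm38 transcripts and annotation given with the data. Some named genes and list members are not reported here, and the counts of a list include all its members tested.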

Additional observations from a re-analysis of the deposited data

Results flagged for a closer look

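The genotype effect after vehicle was set against that after bleo by the interaction term of the edgeR fit over all 12 libraries, whose values below are the log2 fold change of the libraries labelled Pear1-/- over *WT* after vehicle minus that after bleo. Of 37 named genes, 15 differed at an adjusted p under 0.05, as did 6462 of all 17418 genes (37.1%). The vehicle libraries enter both this term and the comparison itself, so it is no independent check of the vehicle values.

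Igkv16-104 differed by −5.03 (adjusted p = 0.000207, edgeR) and Sema3a by −4.14. Igkv1-110 stood at −3.67, Ppp1r3a at −3.24, Ighv1-61 at −2.54 and Slc27a6, a fatty acid transporter, at −2.52. Kif11, a mitotic kinesin, stood at −1.80, Fat3 at −1.72 and Cep83os at −1.29. Kif11 and Slc27a6 were looked up after their values were seen. In the other direction, F7 stood at 2.02, Ptprc at 1.40, Pdgfc at 1.06 (adjusted p = 0.0167, edgeR) and Epcam at 0.82. Pdgfra, the sorted receptor, differed by −0.94 and Pear1, the targeted gene, by −0.56 (adjusted p = 0.000655, edgeR). For Pear1 this reflects a log2 fold change of 0.48 after bleo in the libraries labelled Pear1-/- beside one of −0.08 after vehicle. All 15 differences also passed without *WT* vehicle replicate 2.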

How the results depend on the processing

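The 578 calls of the 6 vehicle libraries became 2919 with no filter on low counts, 1 with only genes averaging 3 or more in log2 CPM, 28 with limma, 0 when only the vehicle libraries were fitted and 1261 by adjusted p alone. Leaving out 1 library gave 0 to 4931 calls, with 0 for each library except *WT* replicate 2 (edgeR; 2961 to 5876 genes had an unadjusted p under 0.05). DESeq2 called 437. Without *WT* replicate 2, the 4931 calls became 8943 with no filter, 288 with the higher filter (159 higher and 129 lower), 2455 over the genes kept with all libraries (chosen after seeing the data) and 11281 by adjusted p alone, and stayed at 4012 to 4869 when a further library was left out. The cause of the lower count with limma was not tested. The log2 fold change of Pear1 turned to 0.0181 with no filter. Without *WT* replicate 2 it turned to 0.0642 with no filter and 0.00456 with the replicate block, and lay between −0.0757 and 0.0867 when a further library was left out. None of these passed the test.

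Same-numbered libraries did not deviate together from their group means (correlations of 0.064, −0.0972 and −0.292 over 10443 genes). The *WT* mean includes replicate 2, which stood apart, so these values cannot tell whether the numbers pair the samples. With the replicate block 513 genes were called with 6 libraries and 4635 without *WT* replicate 2.

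Over all alternatives, named genes with 6 libraries kept their call or lack of one in 118 cases, lost it in 83, gained it in 5 and turned once. Without *WT* replicate 2 these numbers were 530, 11, 1 and 4. Of 39 list medians, 29 were above 0 without *WT* replicate 2 and 15 of these fell below 0 with TMM factors from the high genes, so the direction of lists with small medians depends on the scaling. At 3 libraries a group, depth limits genes near the floor of 3 counts.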
